A study of Rattus norvegicus with 12 samples.

Results

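The genes described here encode the proteins of the cytosolic ribosome. They were taken from the deposited gene tables by symbol, as protein-coding genes named Rpl or Rps with a number (and an optional letter or copy number), together with the stalk genes Rplp0, Rplp1 and Rplp2, Rpsa and Fau. The rule gave 110 gene models of 19687 genes listed in at least 1 table, 43 for the small subunit and 67 for the large subunit. They carry 90 symbols, of which 10 have several models (30 models in all). A gene model is 1 entry of the annotation with its own identifier, and 85 of the 110 models are spliced, meaning that they span more genome than their deposited length, while 25 are unspliced.

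Lung RNA was sequenced from 12 male Sprague-Dawley rats with pulmonary hypertension caused by monocrotaline (MCT), a plant toxin that injures lung vessels and was given to every animal at 60 mg/kg. By osmotic minipump, 3 rats each received angiotensin II (AngII, the natural full agonist of the angiotensin type 1 receptor, 1 mg/kg per day), TRV023 (a peptide agonist that steers the same receptor towards β-arrestin, 14.4 mg/kg per day), losartan (a blocker of that receptor, 10 mg/kg per day) or the phosphate-buffered saline vehicle. Doses therefore differ between drugs. The labels give every animal as 9 weeks old, name no batch, and hold no rat without MCT, so every difference below is between MCT lungs, and the length of infusion in the sequenced rats is not stated apart from other experiments of the study.

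A cytosolic ribosome is built from a small subunit, which reads the messenger RNA, and a large subunit, which joins the amino acids. Nearly every ribosomal protein is needed in 1 copy per ribosome, apart from the acidic stalk proteins, so cells make their messenger RNAs in parallel. These messages are short, very abundant, and in vertebrates begin with an oligopyrimidine tract, the TOP motif, through which mTOR signalling and the RNA-binding protein Larp1 set their translation.

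The stretch around the start of transcription is shown for 7 members, because runs of C and T near it are common among the members and were not used in the choice by symbol. The sequences run from 60 bases before to 30 bases from the annotated start in the RefSeq promoter table (rat build GRCr8), and capitals mark the longest run of at least 8 bases made only of C or T within 20 bases of the start.
Rps19, chr1:89608628-89608717, plus strand: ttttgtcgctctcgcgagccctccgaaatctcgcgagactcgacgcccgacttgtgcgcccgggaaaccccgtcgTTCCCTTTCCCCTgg
Rpl17, chr18:70856216-70856305, plus strand: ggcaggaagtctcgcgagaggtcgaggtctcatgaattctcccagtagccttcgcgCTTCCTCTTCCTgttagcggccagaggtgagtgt
Rpl18, chr1:105325210-105325299, plus strand: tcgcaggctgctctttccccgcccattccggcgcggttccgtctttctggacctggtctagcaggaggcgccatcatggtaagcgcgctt
Fau, chr1:212779453-212779542, plus strand: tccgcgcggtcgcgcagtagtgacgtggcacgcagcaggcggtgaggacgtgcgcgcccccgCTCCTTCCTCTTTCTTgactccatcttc
Rps15, chr7:10068086-10068175, minus strand: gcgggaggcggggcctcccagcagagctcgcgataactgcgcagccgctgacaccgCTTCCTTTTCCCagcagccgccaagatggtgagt
Rpl13, chr19:68062454-68062543, plus strand: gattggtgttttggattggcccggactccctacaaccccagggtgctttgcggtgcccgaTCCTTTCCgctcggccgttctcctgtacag
Rplp0, chr12:46718361-46718450, minus strand: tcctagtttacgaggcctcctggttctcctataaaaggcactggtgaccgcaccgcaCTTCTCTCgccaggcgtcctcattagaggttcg
In 6 of these 7 the run is present, 16 bases long in Fau, 13 in Rps19, 12 in Rpl17 and Rps15 and 8 in Rpl13 and Rplp0, and Rpl18 has none within 20 bases of the start. Of the 90 symbols, 68 matched the table with 69 promoters. A run within 10 bases of the start was found in 46 of the 69 (66.7%), against 13.5% of all 33469 promoters in the table. Within 20 bases of the start the shares were 76.8% and 21.3%. The run within 20 bases was present in 24 of 28 small subunit and 29 of 41 large subunit promoters. In the whole window of 300 bases, CTTCCGG or its reverse complement was found in 30.4% of the members' promoters and in 8.75% of all promoters, whereas TATAAA on either strand was found in 13.0% and 14.2%. A run near the start need not begin at the first transcribed base, and in Rps19 it begins at base 16. The shares are therefore not shares of TOP tracts. These matches describe letters, and no binding was measured.

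All 12 libraries carried lung genes at high level: Sftpc, the surfactant protein of alveolar type 2 cells, was at 5224 to 16391 FPKM (the deposited abundance, scaled to gene length and library depth), and Ager of type 1 cells at 960 to 2068 FPKM. The libraries held 16106337 to 20096877 counts in genes. The main test was edgeR's quasi-likelihood test with Benjamini-Hochberg adjustment, and a gene was called at an adjusted p under 0.05. In the whole table the AngII comparison gave 2 calls (15059 genes tested), the TRV023 comparison 1 call (15193 genes) and the losartan comparison none (15156 genes, 104 higher and 146 lower at an unadjusted p under 0.05), while DESeq2 gave 219, 107 and 6. The 3 comparisons share the vehicle lungs. Libraries are named as in the labels, by group and animal number. Ang2_931, Trv_918 and Los_925 lay at the ends of the members' levels, and results that rest on single libraries are given without them.

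Expression of the members spanned a wide range. Of 110 models, 72 averaged at least 100 FPKM over the 12 libraries (31 small subunit, 41 large subunit, 2 of them unspliced) and 57 at least 500 FPKM. Among spliced models the median of the mean FPKM was 781 for the small subunit and 804 for the large subunit. The most abundant model was Rpl41, which encodes a very short peptide of the large subunit, at 2416, 4037 and 3006 FPKM in AngII lungs, 2519, 1929 and 2576 FPKM in TRV023 lungs, 2029, 2412 and 2827 FPKM in losartan lungs and 2132, 2279 and 2589 FPKM in vehicle lungs. Next were Rplp1 on chromosome 8 (mean 2187 FPKM), an acidic stalk protein, Rpl13a (1799.9 FPKM), which also has a role in silencing inflammatory messages in myeloid cells, Rplp0 (1661 FPKM), the base of the stalk, and Rps24 (1405 FPKM). Together the models took 3.93%, 5.05% and 4.70% of all counts in AngII lungs, 4.19%, 3.32% and 4.12% in TRV023 lungs, 3.24%, 4.33% and 4.02% in losartan lungs, and 3.50%, 3.60% and 4.16% in vehicle lungs. The AngII range reached above every other library in 2 of 3 lungs, and the third, Ang2_922, lay within the vehicle range.

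**Figure D1:**
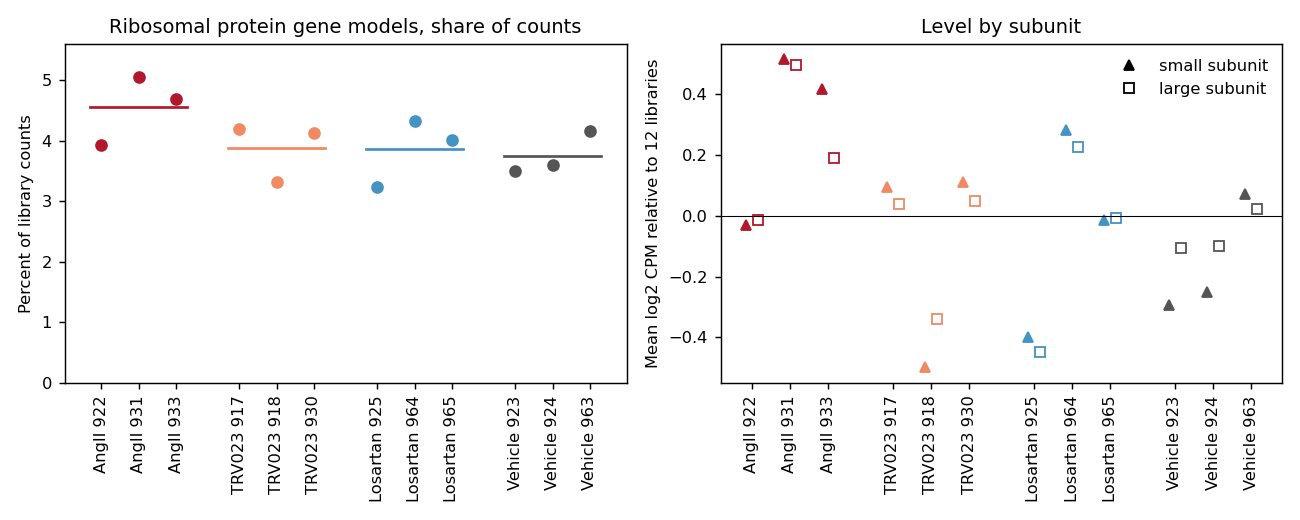
The left panel plots the share of each library's counts (percent) that fell on the 110 ribosomal protein gene models, with the group mean as a line, and the right panel plots the mean log2 CPM of small subunit (filled triangles) and large subunit models (open squares) relative to the 12 libraries. The AngII libraries run from 3.93% to 5.05% and the vehicle libraries from 3.50% to 4.16%, and the 2 symbols of a library are farthest apart in Ang2_933, by 0.23.

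A lower end also existed. Of the 110 models, 16 averaged under 10 counts over the libraries that list them, and 10 of these were spliced. Among these were models of proteins found in every ribosome. Rps6, the small subunit protein that S6 kinase phosphorylates, had 1, 4 and 20 counts in AngII lungs, 23, 2 and 5 in TRV023 lungs, 8, 10 and 3 in losartan lungs and 11, 1 and 23 in vehicle lungs. Rplp2, the partner of Rplp1 in the stalk, had 62 counts in Ang2_931 and 0 to 8 in every other library. Rps9 had 0 to 24 counts, and Rpl8 was listed in the TRV023 table only, with 0 to 2 counts. Such counts describe these gene models, and the reads of genes with near-identical copies may be counted elsewhere, which was not tested. How reads that match several places were counted is not stated in the labels or methods. The shortest models were 4 unspliced copies of Rpl39 of 156 bases, a large subunit protein of the exit tunnel, on chromosomes 14, 18, 20 and X. The longest were Rpl9 (1579 bases), Rpl4 (1399) and Rpl3l (1336), a heart and muscle paralog of Rpl3 that stayed at 0.0435 to 0.912 FPKM, against 667 to 879 FPKM for Rpl3.

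The members moved together from library to library. Over 79 spliced models with enough counts in all 12 libraries, the median Pearson correlation of log2 CPM between 2 models was 0.84 over 3081 pairs, and after the group means were removed it was 0.80. These points share the same 12 libraries and their depth and normalization, so the values are a description. With the mean of the other members, 63 of 79 spliced and 3 of 20 unspliced models correlated above 0.8. Rpl26 had 0.98, Rps24 0.98 and Rps20 0.97. In contrast, 9 of the 99 had r under 0.3. The strongest opposite course was that of Rpl7l1 (r = -0.68), a paralog of Rpl7 whose yeast relative acts in assembly of the large subunit, and the others were weakly expressed or copied models: Rpl22l2, Rpl10l, Rps27l3, Rps4y2, 1 model of Rpl7a, 1 of Rpl32 and 2 of Rpl35a.

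AngII was compared with vehicle to ask what the full agonist did to these transcripts. Small and large subunit members were mostly higher in AngII lungs, by a median log2 fold change of 0.39 (1.31-fold) over the 96 models tested, against a median of -0.02 over all genes. In all, 86 of 96 lay above 0, against 47.4% of all genes. None passed the adjusted threshold of edgeR (0.0133% of all genes did). At an unadjusted p under 0.05, 45 were higher, against a background of 6.54%, and 2 were lower, against 5.39%. In whole lung, a change in cell number cannot be told apart from a change of RNA per cell. Groups did not overlap, with every AngII library above every vehicle library in log2 CPM, for 28 members (9.46% of all genes), and lay wholly below for 2 (9.17%). DESeq2 called 9 members, all higher in AngII (1.46% of all genes tested), at adjusted p between 1.51e-08 and 0.0492, whereas the edgeR adjusted p of the same 9 lay between 0.133 and 0.347. Over 20 alternative settings, DESeq2 was the only 1 under which any of these 9 passed, and the highest adjusted p of the 9 was 0.728.

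Of the 9, Rps19 had the smallest p. Its protein belongs to the head of the small subunit and is the one most often mutated in Diamond-Blackfan anaemia. It stood at 327, 323 and 309.5 FPKM in AngII lungs, against 205, 178 and 187 FPKM in vehicle lungs. The 3 AngII lungs lay within a narrow band above all vehicle lungs (log2 fold change 0.89 ± 0.11 SE, edgeR adjusted p = 0.133). Its correlation with the mean of the other members over the 12 libraries was low (r = 0.37).

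Rpl17, a large subunit protein at the end of the exit tunnel, was at 869, 1529 and 1407 FPKM in AngII lungs, against 687, 738 and 820.5 FPKM in vehicle lungs (log2 fold change 0.91 ± 0.23 SE, edgeR adjusted p = 0.323). Every AngII lung lay above every vehicle lung, with Ang2_922 nearest to vehicle. Rpl18, also of the large subunit, was at 801, 1156 and 994 FPKM in AngII lungs, against 691, 683 and 673 FPKM in vehicle lungs. The vehicle lungs lay close to each other, and the AngII lungs were spread more widely above them. Fau, which encodes a fusion of a ubiquitin-like protein with a small subunit protein, was at 1125, 1519 and 1346 FPKM in AngII lungs, against 756, 867 and 1058 FPKM in vehicle lungs.

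The other 5 called by DESeq2 were Rps28 on chromosome 7, Rps15, Rps20, Rps10 and Rpl13, and their log2 fold changes were 0.77, 0.61, 0.63, 0.55 and 0.54. Rps15, a protein of the head of the small subunit, was at 1455, 1838 and 1792 FPKM in AngII lungs, against 1116, 1239 and 1320.3 FPKM in vehicle lungs. Rpl13 was at 1189, 1493 and 1495 FPKM in AngII lungs, against 1020.5, 1006 and 1134 FPKM in vehicle lungs. In each of these the groups were apart, and in each Ang2_922 was the lowest of the AngII lungs.

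**Figure D2:**
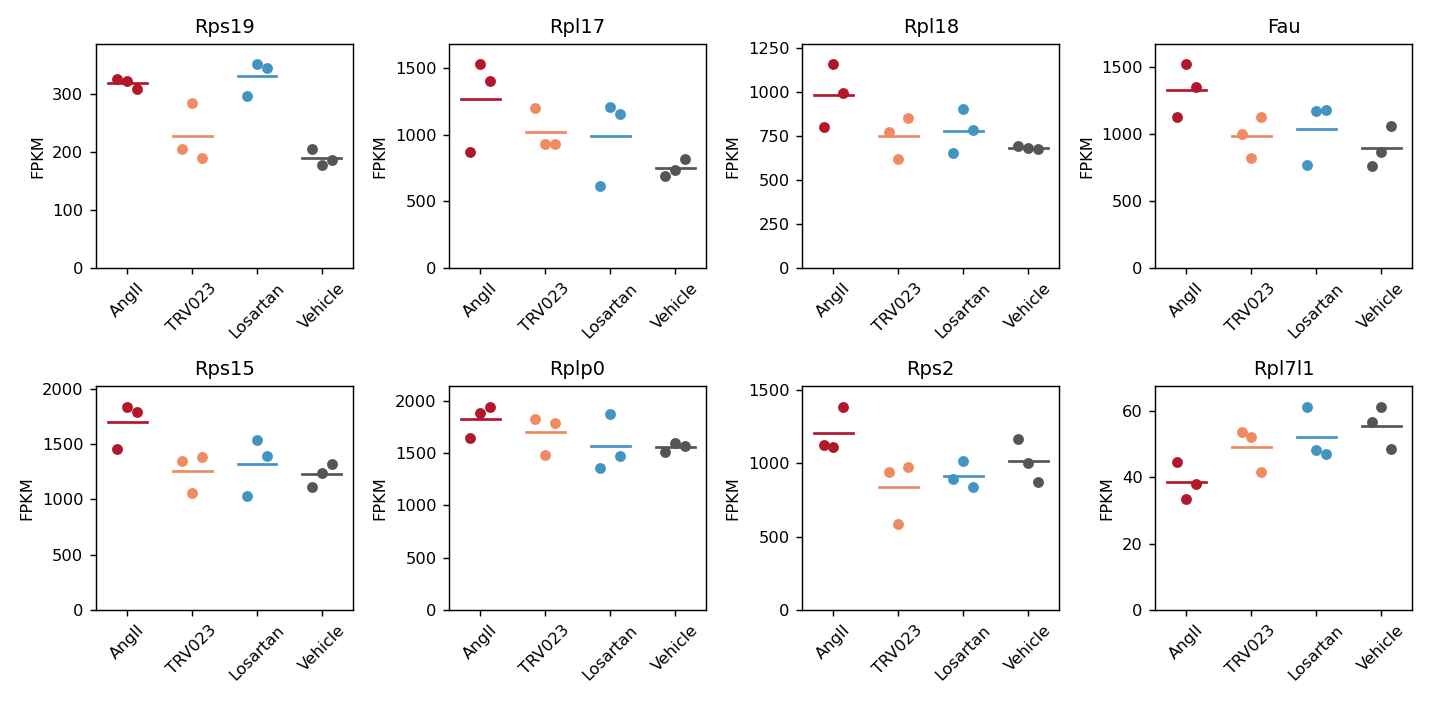
FPKM in every lung (points) with the group mean (line) is plotted for 8 members in AngII, TRV023, losartan and vehicle lungs, each axis starting at 0. Rps19 lies at 309.5 to 327 FPKM with AngII and 298 to 352 FPKM with losartan, against 178 to 205 FPKM with vehicle, and Rpl7l1 is lower with AngII.

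The stalk proteins and Rpsa were also higher in AngII lungs by value. Rplp0 was at 1640.3, 1882 and 1944 FPKM in AngII lungs, against 1511, 1592 and 1566 FPKM in vehicle lungs (log2 fold change 0.37, edgeR adjusted p = 0.403). Rplp1 on chromosome 8 had a log2 fold change of 0.50 and its weaker model on chromosome 17 one of 0.65. Rpsa, a small subunit protein that also serves as a laminin receptor, was at 1376, 1789 and 1643 FPKM in AngII lungs, against 1185, 1305 and 1266 FPKM in vehicle lungs. In TMM-scaled CPM, AngII lay above vehicle without overlap in all 4, whereas in FPKM Rplp1 on chromosome 8 overlapped (1989 to 2991 FPKM in AngII lungs, against 1905 to 2061 FPKM in vehicle lungs). None passed edgeR's threshold.

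Paralogs were set beside their partners. Rpl7 had a log2 fold change of 0.25 and Rpl7l1 one of -0.39 (edgeR unadjusted p = 0.0295, adjusted p = 0.389). Rpl7l1 was at 44.4, 33.3 and 38.1 FPKM in AngII lungs, against 56.7, 61.3 and 48.6 FPKM in vehicle lungs, and the groups did not overlap. Rpl22, which binds a viral RNA as well as the ribosome, had a value of 0.39, Rpl22l1 one of 0.27, and the unspliced Rpl22l2 one of -0.62. Rps27 had 0.48 and Rps27l, a p53 target, 0.23. Rpl10 had 0.16 and the retrocopy Rpl10l, which is known from testis, -0.92 at 0.414 to 1.82 FPKM in AngII lungs and 1.01 to 4.34 FPKM in vehicle lungs. The model named Rps4x, unspliced and on chromosome 4, had -0.05. The lowest values were those of the 2 Rpl7a models (-2.07 and -1.23), Rpl10l and Rpl35a on chromosome 6 (-0.92), and the highest were Rpl35a on chromosome 12 (0.96 ± 1.38 SE), Rpl17, Rps19 and Rps21 (0.78). None of the differences between partners was tested.

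The size of the difference depended on single animals. Against 45 in all, the members that were higher at an unadjusted edgeR p under 0.05 numbered 14 of 99 without Ang2_931 (3.56% of all genes in that fit), 19 of 97 without Ang2_933 (4.81%), 14 of 99 without Veh_923 (4.62%) and 20 of 98 without Veh_924 (4.74%). Without Ang2_922 they numbered 63 of 99 (9.43%), and without Veh_963 64 of 98 (5.80%). The median stayed between 0.31 and 0.51 in these 6 fits.

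**Figure D3:**
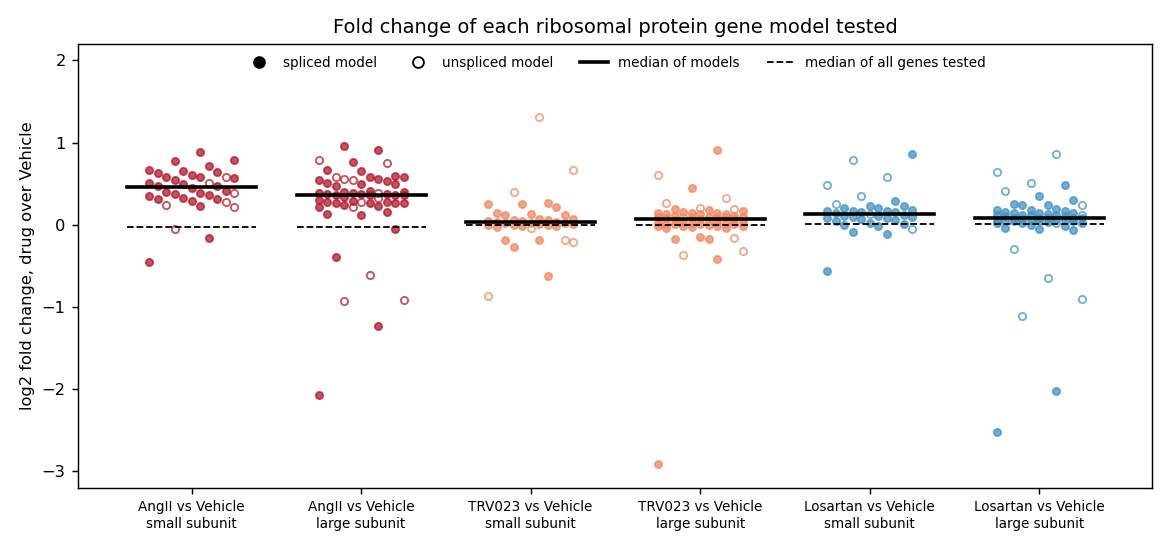
Each point is the log2 fold change of 1 gene model, drug over vehicle, for small and large subunit models in the 3 comparisons, filled for spliced and open for unspliced models, with the median of the models (solid line) and of all genes tested (dashed line). The AngII medians are 0.46 and 0.37, the TRV023 medians 0.03 and 0.07, and the losartan medians 0.13 and 0.08.

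Small and large subunit members were then compared, because the 2 subunits are needed in equal number. With AngII the median log2 fold change was 0.46 over 38 small subunit models and 0.37 over 58 large subunit models. Of these, 22 of 38 and 23 of 58 had an unadjusted edgeR p under 0.05 and were higher, against 6.54% of all genes. Their total depended on single animals, as given above, and the difference between the subunits was not tested. Among spliced models the medians were 0.48 (31 models) and 0.37 (46 models). The gap between the subunits was 0.09 and lay between 0.07 and 0.13 with each of the 6 libraries left out in turn. In single libraries, however, the mean of the small subunit minus that of the large subunit was -0.02, 0.02 and 0.23 in AngII lungs, 0.06, -0.16 and 0.06 in TRV023 lungs, 0.05, 0.06 and -0.01 in losartan lungs, and -0.18, -0.15 and 0.05 in vehicle lungs (log2 CPM, relative to the 12 libraries). AngII and vehicle lungs overlapped, since Veh_963 lay above 2 of 3 AngII lungs. For TRV023 the medians were 0.03 for the small and 0.07 for the large subunit, and for losartan 0.13 and 0.08.

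Gene length was taken into account because the members are short. Spliced small subunit models had a median length of 526.5 bases and large subunit models one of 636, against 2006 bases over all genes tested. Over all 15059 genes the log2 fold change with AngII was lower in longer genes (Spearman's rho = -0.25), and likewise over the 77 spliced members (rho = -0.39). Genes are not independent replicates, so no p is given. In other genes the median log2 fold change was 0.18 under 1000 bases, 0.03 from 1000 to under 2000 bases and -0.10 at 2000 bases or more. At equal length the members lay higher. Under 500 bases their median was 0.43 over 36 models, against 0.21 over 651 other genes. From 500 to under 700 bases it was 0.41, against 0.21, from 700 to under 1000 bases 0.29, against 0.16, and from 1000 to under 2000 bases 0.37 over 8 models, against 0.03 over 5123 other genes. With the length trend of each library removed before the fit, the members' median was 0.19 and 16 of 96 members had an unadjusted edgeR p under 0.05 and were higher, against 6.06% of all genes in that fit. Length thus went with part of the difference, and what lies behind the length trend was not tested.

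Within length classes the subunits differed unevenly. Under 500 bases the medians were 0.43 for 14 small subunit models and 0.43 for 22 large subunit models. From 500 to under 700 bases they were 0.53 (14 models) and 0.37 (17 models), and from 700 to under 1000 bases 0.36 (8 models) and 0.26 (13 models). After removal of the length trend the gap between the subunit medians was 0.07.

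**Figure D4:**
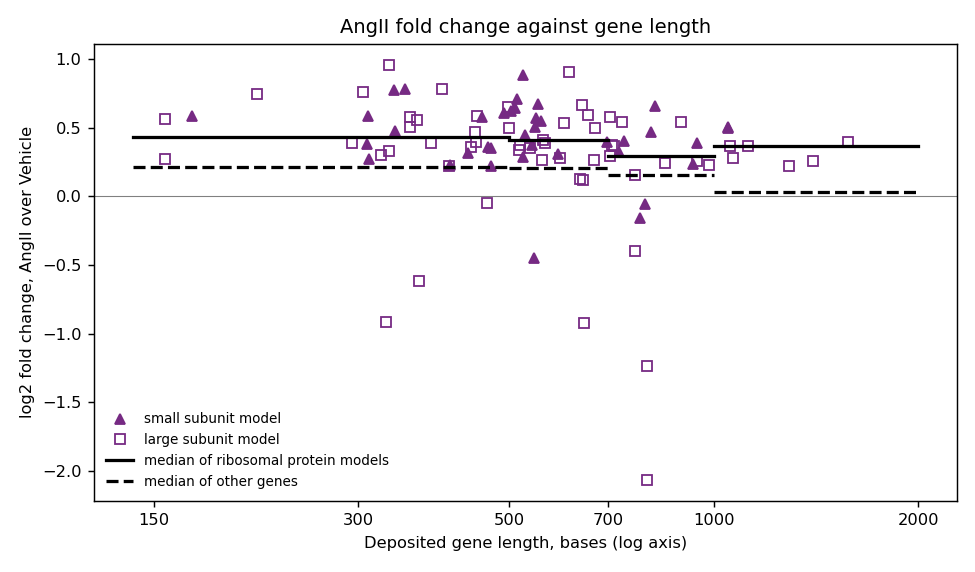
The log2 fold change of each ribosomal protein gene model, AngII over vehicle, is plotted against its deposited length in bases (log axis), filled triangles for the small and open squares for the large subunit, with the medians of the models (solid) and of other genes (dashed) by length class. The solid lines lie at 0.43, 0.41, 0.29 and 0.37, above the dashed lines at 0.21, 0.21, 0.16 and 0.03.

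TRV023 was compared with vehicle to ask what the β-arrestin-biased agonist did. The members' median log2 fold change was 0.04 over 95 models, against -0.00161 over all genes, and 66 lay above 0, against 49.7% of all genes. Neither edgeR nor DESeq2 called a member (0.00658% and 0.705% of all genes). Groups lay apart for 1 higher and 0 lower members (4.69% and 5.56% of all genes). At an unadjusted edgeR p under 0.05, 1 was higher and 2 were lower, against backgrounds of 2.61% and 2.96%. The 1 higher was Rpl17, at 1201, 927 and 927 FPKM in TRV023 lungs, against 687, 738 and 820.5 FPKM in vehicle lungs. The groups did not overlap (log2 fold change 0.45 ± 0.17 SE, edgeR adjusted p = 0.815). The 2 lower were 1 model of Rpl7a and the unspliced Rps10l1, which had 52.5, 38.8 and 47.2 FPKM in TRV023 lungs and 48.2, 88.7 and 115 FPKM in vehicle lungs. The highest log2 fold changes were those of weak or copied models, Rps4y2 (1.31), Rpl35a on chromosome 12 (0.91), Rps29 on chromosome 3 (0.67) and Rpl10l (0.60), and none of these had groups apart. The median was 0.16 without Trv_918, with 5 of 97 members higher at an unadjusted p under 0.05, against 3.03% of all genes in that fit. It was 0.15 without Veh_963 (2 of 96 members, against 4.45%) and -0.03 to 0.02 without any 1 of the other 4 libraries. At that p, 0 members were higher without Veh_923 (2.15% of all genes) or Veh_924 (2.07%), and 1 without Trv_917 (2.09%) or Trv_930 (2.94%).

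In Trv_918 many members were low. Rps2, a small subunit protein at the entry of the messenger, had 939.8, 589 and 977 FPKM in TRV023 lungs, and Trv_918 was the lowest of all 12 lungs. In that library Rps19 stood apart, at 286 FPKM, against 206 and 189.8 FPKM in the other TRV023 lungs.

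Losartan was compared with vehicle to ask what blocking the receptor did. The members' median was 0.11 over 94 models, against 0.00628 over all genes, and 79 lay above 0, against 51.3% of all genes. edgeR called 0 members (0% of all genes), and at its unadjusted p under 0.05 there were 3 higher (0.686% of all genes) and 1 lower (0.963%). Groups lay apart for 1 higher member, Rps19, and 1 lower, the unspliced Rpl22l2 (2.78% and 2.99% of all genes). DESeq2 called 1 (0.0397% of all genes), Rps19, at 298, 352 and 345 FPKM in losartan lungs, against 205, 178 and 187 FPKM in vehicle lungs. The groups were apart (log2 fold change 0.87 ± 0.16 SE, edgeR adjusted p = 0.9999, DESeq2 adjusted p = 0.00811, and 0.00811 to 0.999985 over 21 settings). The other 2 higher were unspliced copies, Rpl32 on chromosome 6 at 35.4, 19.7 and 16.6 FPKM in losartan lungs, against 12.7, 10.04 and 17.6 FPKM in vehicle lungs, and Rps4y2 at 12.1, 16.2 and 20.3 FPKM in losartan lungs, against 13.8, 7.05 and 8.53 FPKM in vehicle lungs. In both of these the groups overlapped. Rpl22l2 was at 3.01, 1.42 and 0.834 FPKM in losartan lungs, against 4.07, 3.94 and 3.64 FPKM in vehicle lungs.

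The losartan median turned on single animals. It was 0.26 without Los_925, -0.05 without Los_964, 0.08 without Los_965, 0.22 without Veh_963, 0.05 without Veh_923 and 0.07 without Veh_924. The members higher at an unadjusted p under 0.05 numbered 7 of 98 without Los_925 (2.39% of all genes in that fit). They numbered 1 or 2 without any other library (0.459% to 1.41% of all genes in those fits). Los_964, Los_965 and Veh_963 carry higher animal numbers than the rest, and with this number series as a covariate the median was -0.05.

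The drugs were compared with each other in 1 fit of 12 libraries and 15662 genes, which held 99 members. AngII lungs were above TRV023 lungs by a median of 0.36, and above losartan lungs by 0.34, whereas TRV023 minus losartan was -0.04. No member passed the adjusted edgeR threshold in any of the 3 (0% of all genes each). At an unadjusted p under 0.05, 24 members were higher and 0 lower in AngII than in TRV023 (backgrounds 5.43% and 5.43%), 13 were higher and 1 lower in AngII than in losartan (4.69% and 4.49%), and 0 were higher and 2 lower in TRV023 than in losartan (2.29% and 2.27%). The 24 became 5 of 101 without Ang2_931 (3.30% of all genes in that fit) or without Trv_918 (3.38%), close to the background, 11 of 100 without Ang2_933 (3.71%) and 44 of 101 without Ang2_922 (6.93%). The 13 became 1 of 101 without Ang2_931 (2.60%) or without Los_925 (5.50%), 3 of 100 without Ang2_933 (3.56%) and 5 of 101 without Los_965 (4.04%), close to or below the background. They became 8 of 100 without Veh_924 (4.30%), 30 of 101 without Ang2_922 (5.94%) and 39 of 100 without Los_964 (5.55%). The median of TRV023 minus losartan was 0.07 without Trv_918, 0.12 without Los_964 and -0.20 without Los_925.

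For Rps19 the difference itself was 0.64 (95% interval 0.30 to 0.98) between AngII and TRV023 and -0.60 (-0.94 to -0.27) between TRV023 and losartan, with edgeR adjusted p of 0.281 and 0.920. Between AngII and losartan it was 0.04, with an interval from -0.30 to 0.37. Rps21, a small subunit protein, had the second smallest p between AngII and TRV023 (0.98, interval 0.34 to 1.62, adjusted p = 0.293), at 345, 698 and 415 FPKM in AngII lungs and 282, 205 and 334 FPKM in TRV023 lungs. Rpl17 differed by 0.47 between AngII and TRV023, with an interval from -0.17 to 1.103.

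Where a symbol had several models, the split of reads between them differed from animal to animal. Rps27a encodes a ubiquitin fused to a small subunit protein. It has a spliced model on chromosome 14 and an unspliced one on chromosome 5. The unspliced model took 67.7%, 24.2% and 70.2% of the reads of both in AngII lungs, 64.7%, 11.7% and 65.2% in TRV023 lungs, 46.9%, 65.5% and 55.9% in losartan lungs, and 54.5%, 65.9% and 57.9% in vehicle lungs. Ang2_931 and Trv_918 thus stood apart from their groups, and the spliced model reached 766 and 510.0 CPM (counts scaled to library totals) there, against 239 to 334 CPM in the other 10 lungs. The sum of both was 571 to 1010 CPM, a narrower range than that of the unspliced model alone (67.9 to 666 CPM).

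Rpl7a, a large subunit protein, has 2 spliced models on chromosome 3. One, ENSRNOG00000047737, had 9.82, 8.96 and 30.5 CPM in AngII lungs, 3.91, 6.47 and 19.9 CPM in TRV023 lungs, 6.77, 21.2 and 9.08 CPM in losartan lungs, and 123, 96.9 and 8.81 CPM in vehicle lungs. It was the member with the lowest log2 fold change in all 3 comparisons (-2.07, -2.91 and -2.52), and each of these rests on the high values of Veh_923 and Veh_924. The other model was highest in Los_965, at 201 CPM. The sum of both models ran from 14.7 to 262 CPM. It was 23.1, 51.5 and 50.3 CPM in AngII lungs, wholly below the 262, 112 and 52.8 CPM in vehicle lungs, though Ang2_931 lay close to Veh_963. TRV023 lungs (58.9, 16.3 and 129 CPM) and losartan lungs (14.7, 46.6 and 210 CPM) overlapped both of these groups. Rpl35a on chromosome 12 (ENSRNOG00000047557) was at 25.3, 21.3 and 0 FPKM in AngII lungs, 0, 50.2 and 0 FPKM in TRV023 lungs, 0.152, 5.59 and 0.154 FPKM in losartan lungs, and 14.6, 11.4 and 0.1495 FPKM in vehicle lungs. When the models of a symbol were summed before the fit, a setting added after seeing the data, the AngII median was 0.39 over 82 genes, that for TRV023 0.03 and that for losartan 0.11.

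**Figure D5:**
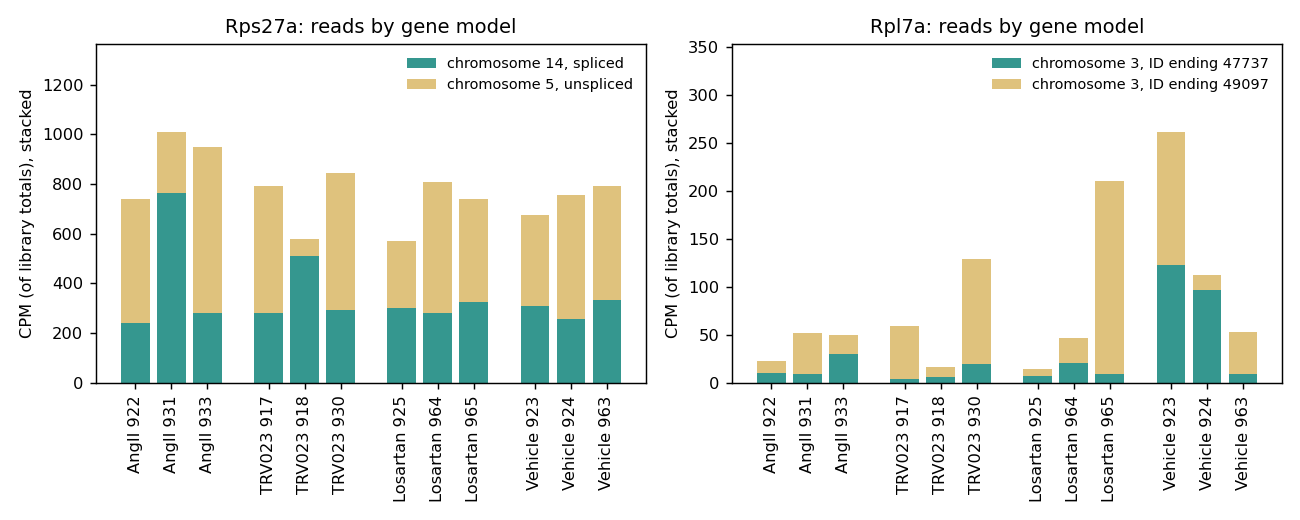
Bars stack the CPM (counts scaled to library totals) of the 2 Rps27a models and of the 2 Rpl7a models in each of the 12 lungs. The unspliced Rps27a model is at 244 CPM in Ang2_931 and 67.9 CPM in Trv_918, and the Rpl7a sum is highest in Veh_923 and Los_965.

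Other genes of translation were read from lists. Of 20 translation elongation factors and further TOP messages, 18 lay above 0 with AngII, with a median of 0.23, and 5 had an unadjusted edgeR p under 0.05, all higher, against 6.54% of all genes. DESeq2 called 1 (1.46% of all genes), Eif3h, an initiation factor subunit (log2 fold change 1.96, edgeR adjusted p = 0.338). Eef1b2, an exchange factor of elongation, had 0.53. The median of this list was 0.04 with TRV023 and 0.09 with losartan.

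The machinery that makes ribosomes had medians near 0. Of 62 ribosome biogenesis factors tested with AngII, 28 lay above 0 (median -0.06), with 3 higher and 2 lower at an unadjusted p under 0.05, which is near or below the background of 6.54% and 5.39%, and none was called by either tool. Nop58 of the box C/D particles had -0.43, Dkc1, the pseudouridine synthase, 0.46 and the helicase Ddx21 -0.39. Of 12 genes of the RNA polymerase I machinery, 4 lay above 0 (median -0.05), with Taf1d at -0.56 and Ubtf at 0.34. Of 27 other initiation factors, 12 lay above 0 (median -0.01), Eif3a at -0.31 among them. Of 14 mTOR and Myc regulators, 6 lay above 0 and none had an unadjusted p under 0.05. Larp1 was at -0.42 and Eif4ebp1 at 0.34. Of 6 ribosomal protein chaperones, 4 lay above 0 (median 0.06), and Aamp, a gene placed there for its yeast relative, was at 0.40. In the TRV023 and losartan comparisons neither tool called a gene of these 6 lists, in which 20, 27, 63, 6, 12 and 14 genes were tested. With TRV023 an unadjusted edgeR p under 0.05 was reached by 2 higher and 2 lower genes, against 2.61% and 2.96% of all genes. With losartan it was reached by 0 higher genes and 1 lower gene, against 0.686% and 0.963% of all genes.

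The 10 genes outside the rule whose log2 CPM followed the members' mean most closely over the 12 libraries had Pearson correlations of 0.945 to 0.984. They were Naca, a subunit of the complex that binds nascent chains (r = 0.984), Tpt1, a known TOP message (0.960), Gnb2l1, which encodes RACK1 on the small subunit (0.955), Atp5g2 of ATP synthase (0.968), Cox4i1 and Cox6c of cytochrome oxidase (0.957 and 0.952), the proteasome subunits Psmb4 and Psmb1 (0.955 and 0.945), and LOC100362069 and LOC100359593, which the files describe as ribosomal. Of the 10, 7 were shorter than 1000 bases, while Gnb2l1 and Psmb1 were 1097 and 1061 bases and Naca 6717. Their log2 fold changes with AngII ran from 0.26 (Naca) to 0.59 (LOC100359593), beside the members' median of 0.39. Cox4i1 had 0.51, Cox6c and Atp5g2 0.47, Psmb4 0.42 and Psmb1 0.27, so the rise was not particular to ribosomal protein genes. These genes were chosen for following the members, so their values follow in part from that choice.

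Other values moved with the groups. Genes of the mitochondrial genome took 9.62% to 12.3% of counts in AngII lungs, 4.36% to 7.07% in TRV023 lungs, 5.11% to 10.02% in losartan lungs, and 5.65% to 7.55% in vehicle lungs, so AngII and vehicle did not overlap. With these genes left out of the counts and library sizes, the AngII median of the members was 0.39. Marker lists of 16 cell types were read as summed CPM of library totals and as fold changes, and DESeq2 called 4 of their genes with AngII while edgeR called none. Of all genes, DESeq2 called 1.46% and edgeR 0.0133%. At an unadjusted edgeR p under 0.05, 6.54% of all genes were higher and 5.39% lower with AngII. All 7 ciliated cell markers tested lay below 0 (median log2 fold change -1.20, 4 at an unadjusted edgeR p under 0.05), with a sum of 228 to 410.1 CPM in AngII lungs, against 376 to 552 CPM in vehicle lungs. All 3 club cell markers tested lay below 0 (median -0.90, all 3 at that p), with a sum of 3133 to 6471 CPM in AngII lungs, against 6025 to 14298 CPM in vehicle lungs. The 5 smooth muscle markers tested lay below 0 (median -0.84, none at that p), with a sum of 1191 to 1938 CPM in AngII lungs, against 1338 to 5168 CPM in vehicle lungs. Of 6 fibroblast markers 1 lay above 0 (median -0.40), and their sum was 6084 to 7744 CPM in AngII lungs, against 8438 to 9062 CPM in vehicle lungs, without overlap. The fibroblast sum in TRV023 lungs also lay wholly below vehicle, at 6343 to 8413 CPM. In losartan lungs it was 4980 to 8469 CPM and overlapped. Ciliated, club, smooth muscle and fibroblast medians were 0.20, 0.39, -0.78 and -0.25 with TRV023. With losartan they were -0.52, -0.29, -0.40 and -0.47.

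On the other side, 5 of 6 mast cell markers lay above 0 (median 0.46), with a sum of 1051 to 1536 CPM in AngII lungs, against 857 to 1151 CPM in vehicle lungs. Of these markers, 4 were higher with an edgeR p under 0.05 before adjustment, against 6.54% of all genes. Tpsb2 and Cma1 had a DESeq2 call, against 1.46% of all genes. All 4 platelet markers lay above 0 (median 0.85, 1 called by DESeq2), with a sum of 79.6 to 134 CPM in AngII lungs, against 57.1 to 81.9 CPM in vehicle lungs. All 9 T and NK cell markers tested (median 0.49) and all 6 B and plasma cell markers tested (median 0.81) lay above 0. Mast, platelet, T and NK, and B and plasma medians were 0.39, -0.41, -0.19 and -0.53 with TRV023. With losartan they were -0.12, 0.46, -0.23 and -0.22. In the TRV023 comparison DESeq2 also called 2 mast cell markers and 1 platelet marker, against 0.705% of all genes. The T and NK sums were 106 to 143 CPM in AngII lungs, against 98.3 to 109 CPM in vehicle lungs, and the B and plasma sums were 76.4 to 119.9 CPM in AngII lungs, against 44.6 to 88.0 CPM in vehicle lungs. Of these 8 lists, the sums of AngII and vehicle lungs overlapped in all but the fibroblasts. Among the remaining lists, 5 of 6 neutrophil markers (median 0.53) and 6 of 7 macrophage markers (median 0.24, 1 called by DESeq2) lay above 0 with AngII. The neutrophil median was higher with TRV023 (1.06, 2 called by DESeq2, against 0.705% of all genes) and with losartan (0.77). The macrophage median was 0.25 with TRV023 and -0.19 with losartan. Alveolar type 2, alveolar type 1, endothelial, mesothelial, erythroid and cardiac muscle markers had medians of -0.07, -0.11, -0.14, -0.22, -0.52 and -1.13 with AngII. These medians were -0.42, 0.35, -0.07, -1.08, 0.61 and -1.03 with TRV023, and 0.27, 0.42, 0.34, -0.41, -0.38 and -0.96 with losartan. Over the 16 lists, the correlation of the summed log2 level with the members' level over the 12 libraries ran from -0.51 to 0.47, as a description. Their part in the members' difference was not tested.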

How the data were processed

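Lung RNA of 12 rats, 3 per group, was analysed from 3 deposited tables, each holding 1 drug group and the same vehicle libraries. Per the file headers the deposited values are raw read counts per gene and FPKM. The authors deposited the FPKM values beside the counts. For the tables' aligner, counter, strand setting and genome build, nothing is given in the sources used here. The tables also hold the authors' own fold changes, p-values and scaled counts, which were not used. Groups came from the sample titles. Replicates are separate animals.

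Main test: edgeR 4.0.16 quasi-likelihood on the counts of the 6 libraries of a table in R 4.3.3, with filterByExpr, TMM and Benjamini-Hochberg adjustment over all genes tested. Library levels are log2 CPM with a prior count of 2. Differences between drugs came from 1 fit of 12 libraries. DESeq2 1.42.0, limma 3.58.1 (voom, and log2(FPKM + 1) above a mean of 1), other scalings and filters, removal of a length trend (lowess, span 0.3) and leaving out libraries were alternatives. Scripts were tested on simulated data. In 3 members (Rps24, Rpl34, Rpl9) the FPKM used another length than the deposited one. Rpl21, Rpl28 and Rps12 were not analysed here.

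The members, lists and tests were chosen with earlier results of these data known. Genes named were drawn from those called by edgeR or DESeq2, the 5 with the smallest edgeR p and the 4 highest and 4 lowest fold changes per comparison, the 5 highest and 5 lowest mean FPKM, the 3 longest and 3 shortest, paralog pairs, stalk proteins, Rps19, Rpl17, Rps6, Rpsa and Fau, the 3 genes of smallest p per list and comparison, and the 10 genes most alike. Rps2, Rps9 and Rps27a were added after their values were seen. Libraries held 16106337 to 20096877 counts, and for abundant members the spread between 3 animals, not counting error, limits the precision.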

Additional observations from a re-analysis of the deposited data

How the results depend on the processing

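Of 629 values recomputed under other settings, 613 stayed the same by the following rules. A count of called members had to stay at 0. A median or subunit gap had to move by less than 0.26, the pooled SD of library levels within groups, whatever its sign. A single gene had to keep its direction and its side of the threshold. Small medians could thus change sign, as for losartan without Los_964 (-0.05) and TRV023 without Trv_917 (-0.03). With DESeq2, 9 members were called for AngII and 1 for losartan. Leaving out Los_964, Los_965 and Veh_963 leaves 1 losartan lung, assumed to vary like the other libraries, so calls of that fit are not given. Its median of the members for losartan was -0.17, and Rpl17 turned to -0.27. With each library left out in turn, 0 members were called in any comparison, and the medians ran from 0.31 to 0.51 for AngII, -0.03 to 0.16 for TRV023 and -0.05 to 0.26 for losartan. Over the other settings the AngII median ran from 0.19 (length trend removed) to 0.51, and it was 0.25 with library totals and 0.26 on log2(FPKM + 1), where the median of all genes was -0.16 and -0.13. Relative to those, the members lay 0.41 and 0.39 above. Members higher at an unadjusted p under 0.05 then numbered 16, 19 and 14, against 45, beside 6.06%, 2.80% and 3.13% of all genes, against 6.54%. With spliced models only, also chosen after seeing the data, the AngII median was 0.39. No paired analysis was possible because the groups share no animal numbers.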
